A study of Mus musculus with 8 samples.

Results

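The 10 endothelial genes described here are Pecam1, Cdh5, Kdr, Emcn, Tie1, Tek, Egfl7, Esam, Vwf and Sox17, taken by name from the 36333 genes of the deposited table. All 10 passed the filter for testing, which kept the 13080 genes that reached a TPM of 1 in 4 or more of the 8 samples. TPM is a per-length share of each library: reads on a gene are first taken relative to transcript length, and the values of each sample then add up to a fixed total, so that levels can be set side by side between genes. The samples were bulk RNA-seq libraries of the ventral prostate, 1 library per mouse, from 4 hSKP2-KI and 4 wild-type (WT) male mice at 12 months of age. Both groups were FVB/N. The hSKP2-KI mice carried a P2A-human SKP2 coding sequence placed by CRISPR/Cas9 in exon 1 of their own probasin gene, so that human SKP2, the substrate-recognition subunit of a ubiquitin ligase, was driven by the androgen-dependent probasin promoter of the prostate epithelium. No other allele and no drug is given in the labels for either group. The line was kept through heterozygous females mated to WT males. Several founder lines were made, and which of them gave the sequenced mice is not given in the sources used here. Whole lobes were homogenized, so vessels, epithelium, stroma and blood cells contributed to the same RNA. The question was which transcripts differed between the knock-in and WT prostate, here those of the vessel lining.

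Endothelial cells line blood and lymph vessels. They hold together through junction proteins such as VE-cadherin and PECAM-1, and receive growth and survival signals through VEGF receptors and through the angiopoietin receptor TIE2 with its partner TIE1. They also store and secrete haemostatic and matrix proteins such as von Willebrand factor and EGFL7. In the prostate a capillary network runs in the stroma around the glands, and pericytes and smooth muscle cells lie outside the endothelium of its vessels.

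The knock-in was checked on Skp2 and Pbsn. Skp2 was at 48.1 ± 10.1 TPM in hSKP2-KI and 1.75 ± 0.528 TPM in WT mice (mean ± SD, n = 4 each), and whether reads of the human insert are counted in the mouse gene was not tested. Pbsn, the gene that received the insert, was at 114.5 ± 39.6 TPM in hSKP2-KI and 5984 ± 2447 TPM in WT mice. Because TPM is a share of each library, abundant secretory transcripts bear on every other gene. Sbp, Spink1 and Sbpl together took between 32.1% and 34.3% of TPM in the hSKP2-KI samples and between 40.4% and 45.9% in the WT samples, and the median tested gene was 0.23 higher in hSKP2-KI mice on the log2(TPM + 1) scale. After median-ratio scaling, which divides each sample by the median ratio of its genes to their geometric means, the median gene was at −0.01. Fold changes below are therefore given both as deposited and after this scaling. All of them are on the log2(TPM + 1) scale, which understates the change of low genes. A gene was called changed at a Benjamini-Hochberg adjusted p under 0.05 in limma, taken over all 13080 genes.

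In the knock-in prostates 6 of the 10 endothelial genes rose on the TPM scale, and 0 of 10 fell. The 6 were Pecam1, Cdh5, Kdr, Tie1, Tek and Egfl7. Of all tested genes 32.7% were called higher and 1.23% lower in hSKP2-KI mice. After median-ratio scaling 3 of the 10 rose, Pecam1, Tie1 and Egfl7, where 6.92% of all genes were called higher and 4.25% lower. Every hSKP2-KI mouse was above every WT mouse for 5 of the 10 genes as deposited, beside 34.0% of all genes with the same lack of overlap, and for 3 of the 10 after scaling, beside 10.3% of all genes. The median log2 fold change of the 10 was 0.58 as deposited and 0.37 after scaling, beside 0.23 and −0.01 over all genes. Their summed level lay between 59.2 and 95.4 TPM in hSKP2-KI mice and between 36.7 and 51.7 TPM in WT mice. In a whole-lobe library, more endothelial cells and more RNA of these genes per endothelial cell cannot be told apart.

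**Figure D1:**
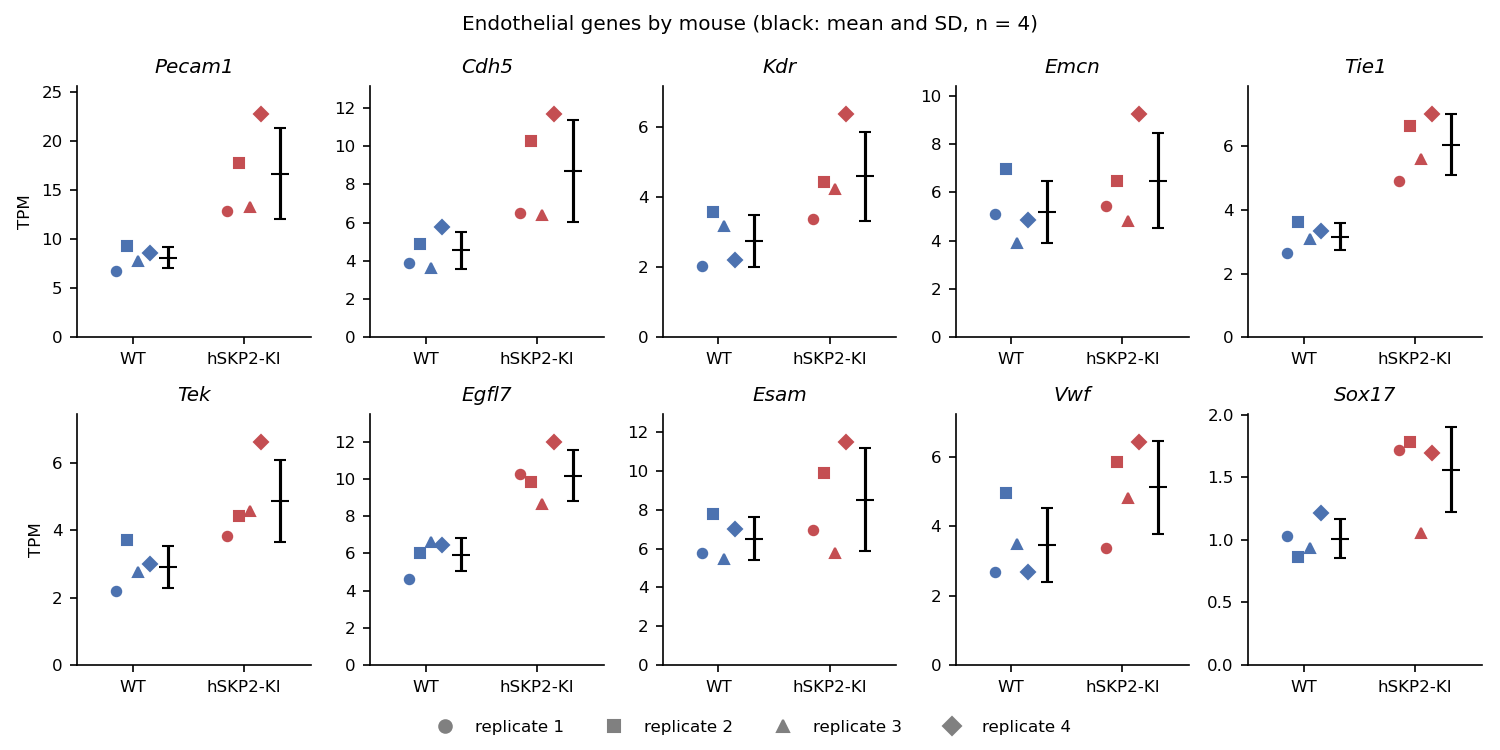
TPM of each of the 10 endothelial genes in every mouse, WT in blue and hSKP2-KI in red, with a marker for each replicate and the mean and SD in black (n = 4). All hSKP2-KI samples lie above all WT samples for Pecam1, Cdh5, Tie1, Tek and Egfl7, and the 4th hSKP2-KI mouse is the highest of all 8 for 9 of the 10 genes. That mouse also had the largest factor of median-ratio scaling (1.12).

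Among the genes of cell junctions, Pecam1 and Cdh5 rose and Esam was not called. Pecam1 (Entrez 18613, chromosome 11) encodes PECAM-1, or CD31, an adhesion molecule of endothelial cell borders that leukocytes and platelets also carry. It was at 12.9, 17.7, 13.3 and 22.8 TPM in the hSKP2-KI mice 1 to 4 and at 6.79, 9.33, 7.77 and 8.62 TPM in the WT mice 1 to 4. The lowest hSKP2-KI mouse was above the highest WT mouse, and the 2nd and 4th hSKP2-KI mice stood above the other two. The log2 fold change of Pecam1 was 0.93 ± 0.17 (SE; limma adjusted p = 0.00393), the largest of the 10 genes, and 0.68 after median-ratio scaling (adjusted p = 0.0199), where the groups again did not overlap. Without the 1st WT mouse the scaled difference of Pecam1 was 0.65 (adjusted p = 0.0546).

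Cdh5 (Entrez 12562, chromosome 8) encodes VE-cadherin, the cadherin of endothelial adherens junctions. It was at 6.51, 10.3, 6.39 and 11.7 TPM in hSKP2-KI mice and at 3.91, 4.89, 3.64 and 5.74 TPM in WT mice. As for Pecam1, the groups did not overlap and the 2nd and 4th hSKP2-KI mice were the highest. Cdh5 rose by 0.78 ± 0.19 in log2 fold change (adjusted p = 0.0135). After median-ratio scaling it was 0.55 (adjusted p = 0.0730), which no longer passed, and the groups overlapped. Without the 3rd hSKP2-KI mouse the scaled difference was 0.67 (adjusted p = 0.0472).

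Esam (Entrez 69524, chromosome 9) encodes an immunoglobulin-like adhesion molecule of endothelial tight junctions. It was at 6.93, 9.87, 5.77 and 11.5 TPM in hSKP2-KI mice and at 5.75, 7.80, 5.44 and 7.03 TPM in WT mice. The groups overlapped, with the 3rd hSKP2-KI mouse level with the 1st WT mouse. Esam had a log2 fold change of 0.31 (95% interval −0.11 to 0.73, adjusted p = 0.201), and 0.08 after scaling (−0.31 to 0.46, adjusted p = 0.820). The upper bound as deposited is above the fold changes of Kdr, Tek and Egfl7 (0.57, 0.58 and 0.69), so it leaves room for a rise of that size. After scaling, the upper bound reaches the fold change of Egfl7 (0.45) but not those of Tie1 and Pecam1 (0.54 and 0.68).

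The 3 receptor tyrosine kinases rose on the TPM scale, and Tie1 rose on both scales. Tie1 (Entrez 21846, chromosome 4) encodes the orphan partner of the angiopoietin receptor. It was at 4.92, 6.65, 5.61 and 7.03 TPM in hSKP2-KI mice and at 2.63, 3.61, 3.08 and 3.34 TPM in WT mice. Its groups were well apart, and it had the smallest relative spread within the genotypes of the 3 receptors. For Tie1 the log2 fold change was 0.75 ± 0.13 (adjusted p = 0.00335) and 0.54 after median-ratio scaling (adjusted p = 0.0129), without overlap on either scale. Tie1 was called on both scales whichever of the 8 mice was left out.

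Tek (Entrez 21687, chromosome 4) encodes TIE2, the receptor that binds angiopoietins. It was at 3.84, 4.42, 4.56 and 6.63 TPM in hSKP2-KI mice and at 2.19, 3.71, 2.75 and 3.00 TPM in WT mice. The groups of Tek touched closely without overlapping, since the lowest hSKP2-KI mouse was just above the highest WT mouse. Its log2 fold change was 0.58 ± 0.17 (adjusted p = 0.0235), and 0.37 after scaling (adjusted p = 0.118), where the groups overlapped. Without the 4th hSKP2-KI mouse the value of Tek as deposited was 0.44 (adjusted p = 0.0570), without the 1st WT mouse 0.48 (adjusted p = 0.0609) and without the 3rd WT mouse 0.56 (adjusted p = 0.0552).

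Kdr (Entrez 16542, chromosome 5) encodes VEGFR2, the main signalling receptor for VEGF-A. It was at 3.37, 4.45, 4.23 and 6.39 TPM in hSKP2-KI mice and at 2.04, 3.59, 3.17 and 2.22 TPM in WT mice. Kdr overlapped between the groups because the 1st hSKP2-KI mouse was below the 2nd WT mouse, and the other 3 hSKP2-KI mice were above all WT mice. Kdr rose by 0.57 ± 0.18 in log2 fold change (adjusted p = 0.0355) and 0.37 after scaling (adjusted p = 0.186). The call of Kdr as deposited rested on several mice: leaving out hSKP2-KI mouse 2, 3 or 4 gave 0.58, 0.60 or 0.43 (adjusted p = 0.0649, 0.0561 and 0.0889), and leaving out WT mouse 1 or 4 gave 0.48 or 0.51 (adjusted p = 0.0920 and 0.0834).

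Egfl7 and Vwf encode secreted proteins, and of these Egfl7 rose on both scales. Egfl7 (Entrez 353156, chromosome 2) encodes a matrix-bound protein of sprouting and quiescent endothelium. It was at 10.3, 9.82, 8.67 and 12.0 TPM in hSKP2-KI mice and at 4.62, 6.04, 6.61 and 6.47 TPM in WT mice. All hSKP2-KI mice lay above all WT mice, and here the 1st and 2nd hSKP2-KI mice were alike. The log2 fold change of Egfl7 was 0.69 ± 0.13 (adjusted p = 0.00445) and 0.45 after scaling (adjusted p = 0.0278). The scaled call of Egfl7 was lost on leaving out any of hSKP2-KI mice 1, 2 and 4 (0.44, 0.47 and 0.39, adjusted p = 0.0604, 0.0526 and 0.0705) or WT mice 1, 2 and 4 (0.39, 0.43 and 0.48, adjusted p = 0.0699, 0.0667 and 0.0518).

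Vwf (Entrez 22371, chromosome 6) encodes von Willebrand factor, the platelet-binding protein that endothelial cells store, and that megakaryocytes also make. It was at 3.37, 5.87, 4.82 and 6.45 TPM in hSKP2-KI mice and at 2.69, 4.96, 3.49 and 2.69 TPM in WT mice. The groups of Vwf overlapped through a low 1st hSKP2-KI mouse and a high 2nd WT mouse. The log2 fold change was 0.46 (95% interval 0.02 to 0.89, adjusted p = 0.0896), and 0.24 after scaling (adjusted p = 0.418). Without that hSKP2-KI mouse the value as deposited was 0.61 (adjusted p = 0.0333) and without that WT mouse 0.61 (adjusted p = 0.0325).

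Emcn (Entrez 59308, chromosome 3) encodes endomucin, a sialomucin of capillary and venous endothelium, and had the smallest difference of the 10 genes. It was at 5.43, 6.46, 4.80 and 9.24 TPM in hSKP2-KI mice and at 5.08, 6.96, 3.90 and 4.84 TPM in WT mice. Apart from the 4th hSKP2-KI mouse, all samples of Emcn lay within the range of the WT mice. The log2 fold change was 0.26 (95% interval −0.16 to 0.68, adjusted p = 0.284). After median-ratio scaling it was 0.03 (−0.36 to 0.43, adjusted p = 0.932), and under quantile normalization it was −0.05, so that no direction held for Emcn across scalings.

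Sox17 (Entrez 20671, chromosome 1), a transcription factor of arterial endothelium, was the lowest of the 10 genes in level. It was at 1.72, 1.79, 1.06 and 1.69 TPM in hSKP2-KI mice and at 1.03, 0.859, 0.939 and 1.21 TPM in WT mice. The 3rd hSKP2-KI mouse fell among the WT mice, and the other 3 were above all of them. The log2 fold change of Sox17 was 0.34 (95% interval 0.04 to 0.65, adjusted p = 0.0748) and 0.19 after scaling (adjusted p = 0.392). Without that mouse the value as deposited was 0.44 (adjusted p = 0.0342).

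**Figure D2:**
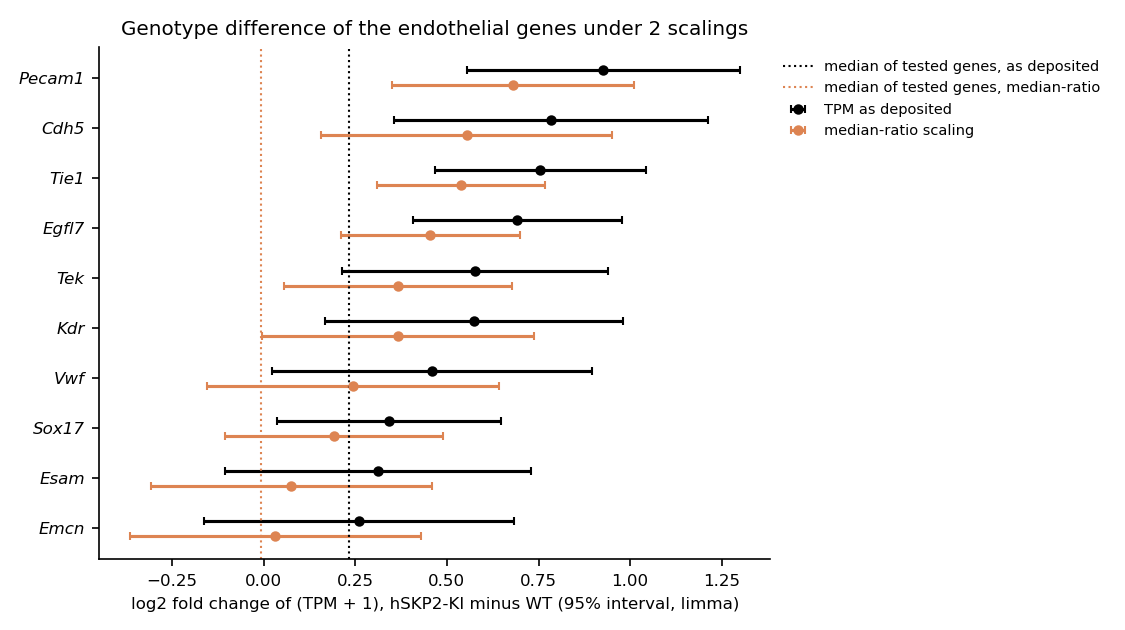
Log2 fold change of hSKP2-KI over WT on the log2(TPM + 1) scale for each of the 10 endothelial genes, as deposited and after median-ratio scaling, with 95% intervals from limma. Pecam1 is highest (0.93 and 0.68) and Emcn lowest (0.26 and 0.03), and every gene lies lower after scaling.

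Genomic sequence just before the gene start is shown for 3 of the genes, since the data bear on whether genes of 1 cell type moved together: Tie1 and Egfl7, called on both scales, and Emcn, called on neither. The windows are from RefSeq, build GRCm38.p6, end at the annotated gene start and are written 5′ to 3′ on the strand of the gene. Tie1 is read from chr4:118489850-118490099 on the minus strand, Egfl7 from chr2:26580833-26581082 on the plus strand (the 1st of its annotated starts) and Emcn from chr3:137340828-137341061 on the plus strand. Capitals mark, on either strand, the ETS-type motifs AGGAAG and CGGAAG, the SOX-type motif AACAAT and the GATA-type motif AGATAA, the core letters of factor families known to act in endothelial genes.
Tie1: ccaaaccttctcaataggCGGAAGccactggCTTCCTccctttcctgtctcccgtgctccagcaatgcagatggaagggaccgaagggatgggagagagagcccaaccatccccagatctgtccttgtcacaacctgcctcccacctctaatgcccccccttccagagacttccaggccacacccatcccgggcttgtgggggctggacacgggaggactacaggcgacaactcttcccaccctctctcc
Egfl7: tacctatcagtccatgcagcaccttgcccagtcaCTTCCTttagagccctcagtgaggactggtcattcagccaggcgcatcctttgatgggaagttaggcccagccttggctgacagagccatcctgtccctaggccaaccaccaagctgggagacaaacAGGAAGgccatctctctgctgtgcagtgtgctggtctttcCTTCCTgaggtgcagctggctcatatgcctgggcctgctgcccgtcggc
Emcn: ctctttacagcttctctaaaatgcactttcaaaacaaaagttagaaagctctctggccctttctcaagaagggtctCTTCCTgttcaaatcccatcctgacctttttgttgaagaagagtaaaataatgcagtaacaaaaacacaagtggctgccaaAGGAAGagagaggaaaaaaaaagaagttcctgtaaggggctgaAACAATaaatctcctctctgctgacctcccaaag

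The Tie1 window held 1 AGGAAG and 1 CGGAAG, the Egfl7 window held 3 AGGAAG, and the Emcn window held 2 AGGAAG and 1 AACAAT. An ETS-type motif was thus in the window of the gene that was not called as well as in those of both called genes. Of all 7 matched windows of 250 bases, from 5 genes with 3 annotated starts for Egfl7, 4 held an ETS-type motif, and the window of Kdr and 1 of those of Egfl7 held none of the motifs searched. Among 32851 windows of 250 bases before annotated starts, 29.5% held AGGAAG, 13.6% CGGAAG, 39.2% either of these, 9.42% AACAAT and 9.99% AGATAA. Unlike the windows shown, these and the 7 matched windows were not cut at the gene start, so some lie inside genes. A match describes the letters and not a bound site. RefSeq windows were matched for 5 of the 10 genes, Kdr, Emcn, Tie1, Tek and Egfl7, and not for Pecam1, Cdh5, Esam, Vwf and Sox17.

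Because a ratio of 2 genes within a sample does not depend on how the library was scaled, each endothelial gene was also divided by Cdh5 in the same mouse. Emcn and Esam had the largest differences in proportion to Cdh5, both lower in the knock-in. Emcn per Cdh5 lay between 0.629 and 0.834 in hSKP2-KI mice and between 0.843 and 1.42 in WT mice, a difference of −0.61 in log2 ratio. Esam per Cdh5 lay between 0.902 and 1.07 in hSKP2-KI mice and between 1.22 and 1.60 in WT mice, a difference of −0.56. Neither ratio overlapped between the genotypes. Under all 70 ways to assign 4 of the 8 mice, a two-sided exact permutation test gave p = 0.0286 for each, the smallest that this design allows, and 0.129 after adjustment over the 9 ratios, which does not pass. With Pecam1 as the denominator the log2 ratio of Emcn differed by −0.70 and that of Esam by −0.66, again without overlap (exact permutation p = 0.0286 and adjusted p = 0.129 for each). Against Pecam1 the other 7 differences were also below 0 and overlapped, from −0.08 for Tie1 to −0.43 for Vwf (exact permutation p = 0.600 and 0.0857). Pecam1 and Cdh5 had the largest log2 fold changes of the endothelial genes as deposited (0.93 and 0.78), and Emcn and Esam the smallest (0.26 and 0.31). The direction of the Emcn and Esam ratios, and of all ratios to Pecam1, therefore restates that order. The ratios to Pecam1 are not a separate line of evidence. With 4 mice a group an adjusted p over 9 ratios passes only if many ratios reach the smallest p, so these tests do not show that a ratio was unchanged. The other 7 ratios to Cdh5 overlapped. Pecam1 per Cdh5 was between 1.73 and 2.08 in hSKP2-KI and between 1.50 and 2.14 in WT mice (log2 difference 0.10, exact permutation p = 0.486), and Tie1 per Cdh5 differed by 0.02 (p = 0.914 in the same exact permutation test). The differences for Kdr, Tek, Egfl7, Vwf and Sox17 were −0.17, −0.18, −0.13, −0.34 and −0.30, all with overlap.

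**Figure D3:**
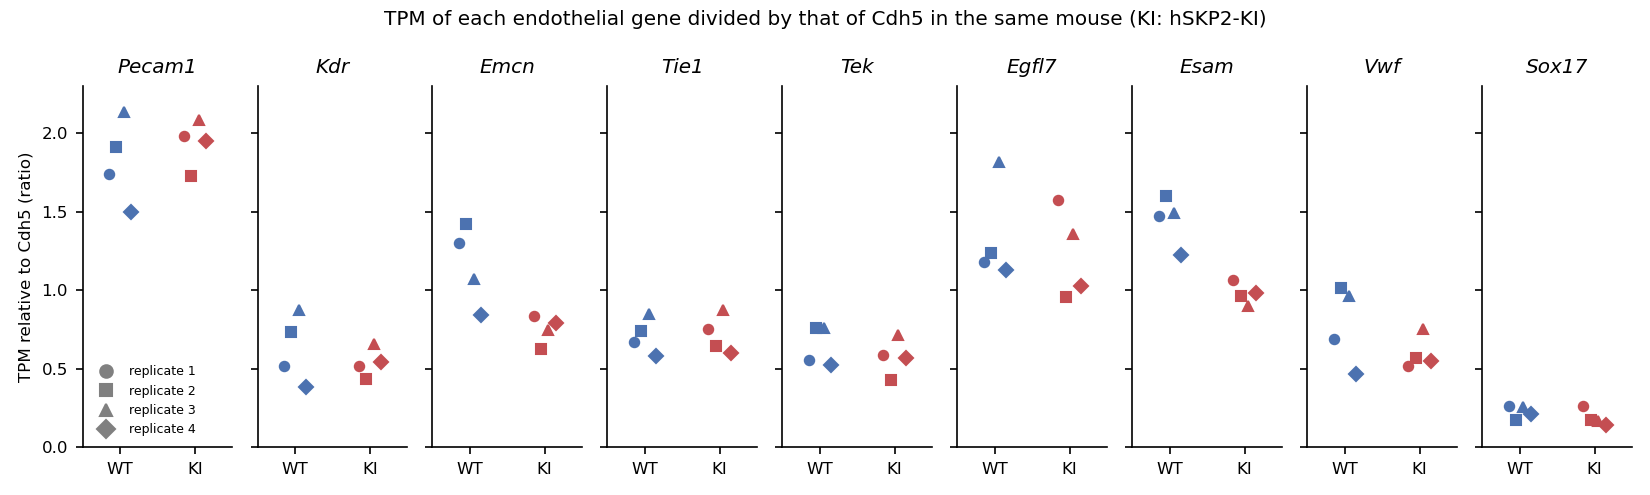
TPM of each of the other 9 endothelial genes divided by that of Cdh5 in the same mouse (linear ratio from 0), WT in blue and hSKP2-KI in red, 1 marker per mouse. Only the panels of Emcn and Esam show hSKP2-KI mice all below WT mice.

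The endothelial genes were also compared from mouse to mouse. Of the 8 mice the 4th hSKP2-KI mouse was highest for 9 of the 10 genes and the 2nd hSKP2-KI mouse for the remaining one, Sox17. The lowest mouse was the 1st WT mouse for 6 genes, the 3rd WT mouse for 3 and the 2nd WT mouse for 1. These counts are on TPM as deposited. The factor of median-ratio scaling was also largest in the 4th hSKP2-KI mouse (1.12) and smallest in the 1st WT mouse (0.828). How many of all tested genes have the same highest or lowest mouse was not counted. Over the 8 mice, after median-ratio scaling, Pecam1 followed the mean of the other 9 genes most closely (Pearson r = 0.970), then Cdh5 (0.905), Tek (0.900) and Tie1 (0.894), and Emcn (0.532) and Sox17 (0.479) least. These correlations include the difference between genotypes. With each genotype mean subtracted, Pecam1 was at 0.985, Esam at 0.899 and Tie1 at 0.890, while Egfl7 was at 0.427 and Sox17 at 0.139. The points of each correlation share their libraries and scaling factors, so the values are a description.

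The genes outside the list whose pattern was most like the mean of the 10 over the 8 mice were 4930503L19Rik (r = 0.975), Dusp1 (0.974), Sema3g (0.972), Tcf21 (0.970) and Procr (0.970). Sema3g, a semaphorin of arterial endothelium, and Procr, the endothelial protein C receptor, are vessel genes. Dusp1 is an early-response phosphatase gene that also answers to tissue handling, and Tcf21 is a transcription factor of mesenchymal cells. After subtraction of the genotype means the 4 most alike were Sema3g (0.993), Sh2b2 (0.972), Tcf21 (0.963) and Zc3h10 (0.962). Sema3g and Tcf21 were thus among those named on both counts, and 4930503L19Rik ranked 10th on the second (0.945). Both counts pick the highest of all tested genes on the same 8 libraries. They are therefore not independent, and the values are a description.

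Across 10 wider lists of vessel genes, 53 of 81 tested genes rose as deposited and 0 fell, with a median log2 fold change of 0.60, beside 32.7% and 1.23% called and 0.23 over all genes. After median-ratio scaling 19 rose and 1 fell, with a median of 0.39, beside 6.92%, 4.25% and −0.01. Another 13 listed genes were below the filter. The 32.7% and 6.92% of all tested genes called higher also stand beside the count of each list below. Several of the listed genes are also expressed outside vessels, and bulk RNA does not say which cells they came from.

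Of the 9 VEGF ligands and receptors 5 rose as deposited (3 without the 2nd or the 4th hSKP2-KI or the 3rd WT mouse). The co-receptor Nrp2 was between 10.2 and 15.2 TPM in hSKP2-KI and between 4.66 and 7.56 TPM in WT mice (log2 fold change 0.74, adjusted p = 0.00759), and rose after scaling too (0.50, adjusted p = 0.0425). The co-receptor Nrp1 changed by 0.81 (adjusted p = 0.00944), and by 0.57 after scaling (adjusted p = 0.0484). Vegfc, the lymphatic growth factor, changed by 0.59 (adjusted p = 0.0274), and by 0.41 after scaling (adjusted p = 0.120). Vegfa, the ligand of Kdr and named here after its value was seen, was the 1 gene of the 9 below 0 as deposited. It was at 36.1, 36.8, 45.8 and 37.1 TPM in hSKP2-KI and at 34.5, 49.3, 52.4 and 50.3 TPM in WT mice, a difference of −0.24 as deposited (adjusted p = 0.163) and of −0.51 after scaling (adjusted p = 0.0222), where it was called lower although the groups overlapped. Among the 5 angiopoietins and Tie partners 1 rose, Angpt2, the angiopoietin that endothelial cells release to modulate Tek signalling. This share was below the 32.7% of all tested genes called higher as deposited. Without the 1st hSKP2-KI mouse 4 were called, and without the 2nd or the 3rd WT mouse 2. Angpt2 was at 5.51, 4.27, 5.31 and 6.74 TPM in hSKP2-KI and at 1.64, 2.56, 2.03 and 4.38 TPM in WT mice (0.86, adjusted p = 0.0122), with 0.66 after scaling (adjusted p = 0.0583). Angpt4 (0.88, adjusted p = 0.0591) and Svep1 (0.70, adjusted p = 0.0558) did not pass, and were at 0.68 and 0.49 after scaling (adjusted p = 0.223 and 0.235).

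Pan-endothelial surface and junction genes rose in 13 of 14 as deposited and 3 of 14 after scaling (Cd34, S1pr1 and Ecscr). Cd34, a sialomucin of endothelium that stromal fibroblasts also carry, was between 35.4 and 57.1 TPM in hSKP2-KI and between 15.2 and 22.1 TPM in WT mice (1.14, adjusted p = 0.00139), with 0.88 after scaling (adjusted p = 0.00600). Ecscr, a surface regulator of endothelial migration, was between 9.80 and 14.4 TPM against 5.02 and 7.09 TPM (0.83, adjusted p = 0.00253), with 0.59 after scaling (adjusted p = 0.0156). The tight junction claudin Cldn5 and the C-type lectin-like receptor Cd93 changed by 0.85 and 0.86 (adjusted p = 0.00915 and 0.0184), and after scaling by 0.61 and 0.68 (adjusted p = 0.0647 and 0.0748).

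Of the endothelial transcription factors 9 of 12 tested rose as deposited and 3 of 12 after scaling (Ets1, Elk3 and Gata2). The flow-responsive factor Klf2 changed by 0.86 (adjusted p = 0.00775), and by 0.61 after scaling (adjusted p = 0.0587). Ets1, of the ETS family, changed by 0.77 (adjusted p = 0.00653), and by 0.54 after scaling (adjusted p = 0.0478). Klf4 changed by 0.73 (adjusted p = 0.0136), and by 0.48 after scaling (adjusted p = 0.0713). Gata2, which prostate epithelium also expresses, was between 38.8 and 43.5 TPM in hSKP2-KI and between 22.6 and 31.2 TPM in WT mice. Erg, Sox7 and Tal1 were below the filter. Erg, the ETS factor of all endothelium, was at 0.853, 2.13, 0.980 and 2.68 TPM in hSKP2-KI and at 0.853, 1.54, 0.751 and 0.872 TPM in WT mice, so its groups overlapped.

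Arterial and Notch genes rose in 6 of 8 tested as deposited and 4 of 8 after scaling (Dll4, Efnb2, Gja5 and Sema3g). Efnb2, the arterial ephrin, was at 4.43, 3.72, 3.05 and 4.23 TPM in hSKP2-KI and at 0.942, 1.53, 1.30 and 1.62 TPM in WT mice. Every hSKP2-KI mouse was above every WT mouse by a wide margin (1.05, adjusted p = 0.00126, and 0.87 after scaling, adjusted p = 0.00463). Sema3g was between 3.62 and 5.89 TPM against 1.85 and 2.58 TPM (0.78, adjusted p = 0.00509, and 0.58 after scaling, adjusted p = 0.0222). Gja5, the arterial connexin, was between 1.89 and 2.84 TPM against 0.895 and 1.34 TPM (0.70, adjusted p = 0.00449, and 0.54 after scaling, adjusted p = 0.0237). The Notch ligand Dll4 changed by 0.64 (adjusted p = 0.00480), and by 0.46 after scaling (adjusted p = 0.0212). The receptor Notch1 went the other way, at −0.01 as deposited (adjusted p = 0.940) and −0.27 after scaling (adjusted p = 0.166). On the scaled values every hSKP2-KI mouse was below every WT mouse for Notch1, as for 1165 of all 13080 tested genes. Hey1, Hey2 and Bmx were below the filter.

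Of the venous and leukocyte adhesion genes 4 of 6 tested rose as deposited and 2 of 6 after scaling (Nr2f2 and Icam1). Icam1, a ligand of leukocyte integrins, was between 9.72 and 12.7 TPM in hSKP2-KI and between 4.05 and 6.83 TPM in WT mice (0.87, adjusted p = 0.00321, and 0.63 after scaling, adjusted p = 0.0175). Vcam1 changed by 0.69 (adjusted p = 0.0337), and the venule chemokine scavenger Ackr1 was at a difference of 0.62 (adjusted p = 0.0558). After scaling, Vcam1 and Ackr1 were at 0.47 and 0.44 (adjusted p = 0.159 and 0.250). Sele was below the filter. Of the capillary genes 2 of 7 tested rose as deposited (Plvap and Aplnr) and 0 of 7 after scaling. These shares were below the 32.7% and 6.92% of all tested genes called higher on the same scales. As deposited, 5 were called without the 1st hSKP2-KI mouse. Without any of the other 3 hSKP2-KI or the 1st, 3rd or 4th WT mouse 1 was called. Plvap, the diaphragm protein of fenestrated capillaries, was between 17.4 and 29.9 TPM against 11.6 and 16.6 TPM (0.73, adjusted p = 0.00789, and 0.48 after scaling, adjusted p = 0.0667). Cd36, which adipocytes also express, ranged from 20.7 to 107 TPM among hSKP2-KI mice alone (0.91, adjusted p = 0.121), and Gpihbp1, the capillary anchor of lipoprotein lipase, was at 0.72 (adjusted p = 0.0745). After scaling Cd36 and Gpihbp1 were at 0.65 and 0.49 (adjusted p = 0.388 and 0.295). Car4 and Btnl9 were below the filter.

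Of the angiogenic tip cell genes 3 of 5 tested rose as deposited, Cxcr4, Nid2 and Pdgfb, and 1 of 5 after scaling, Cxcr4, with 1 called as deposited without the 2nd or the 4th hSKP2-KI mouse. Cxcr4, a chemokine receptor that leukocytes also carry, was at 5.20, 5.05, 4.00 and 5.81 TPM in hSKP2-KI and at 0.729, 2.26, 2.46 and 1.44 TPM in WT mice (1.19, adjusted p = 0.00355, and 1.00 after scaling, adjusted p = 0.0156). Nid2 and Pdgfb changed by 0.60 and 0.55 as deposited (adjusted p = 0.0302 and 0.0244), and were at 0.41 and 0.39 after scaling (adjusted p = 0.147 and 0.107). Apln, Esm1 and Kcne3 were below the filter. Lymphatic genes rose in 3 of 5 tested as deposited and 2 of 5 after scaling (Lyve1 and Ccl21a). Ccl21a, the lymphatic chemokine, whose near-identical gene copies make its level uncertain, was at 87.9, 66.7, 67.5 and 89.9 TPM in hSKP2-KI and at 17.4, 42.3, 25.5 and 39.5 TPM in WT mice (1.36, adjusted p = 0.00355, and 1.10 after scaling, adjusted p = 0.0138). Lyve1, a hyaluronan receptor of lymphatics and some macrophages, was between 8.69 and 17.2 TPM against 2.95 and 8.55 TPM (1.12, adjusted p = 0.0105, and 0.88 after scaling, adjusted p = 0.0425). Mmrn1 was at 0.54 (adjusted p = 0.0745), and at 0.38 after scaling (adjusted p = 0.272). Prox1, the factor that specifies lymphatic endothelium, was below the filter, at 0.316 to 0.460 TPM in hSKP2-KI and 0.0199 to 0.247 TPM in WT mice without overlap.

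Of the 10 genes of vascular tone and haemostasis 7 rose as deposited and 2 after scaling (Thbd and Plat). Thbd, or thrombomodulin, was between 16.0 and 24.7 TPM in hSKP2-KI and between 11.8 and 13.3 TPM in WT mice (0.64, adjusted p = 0.00449, and 0.38 after scaling, adjusted p = 0.0414). Plat, the tissue plasminogen activator, was between 6.67 and 12.1 TPM against 4.40 and 5.99 TPM (0.76, adjusted p = 0.00682, and 0.52 after scaling, adjusted p = 0.0478). The endothelin receptor Ednrb and Procr changed by 0.80 and 0.68 (adjusted p = 0.0294 and 0.0163), and by 0.58 and 0.49 after scaling (adjusted p = 0.135 and 0.0727).

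**Figure D4:**
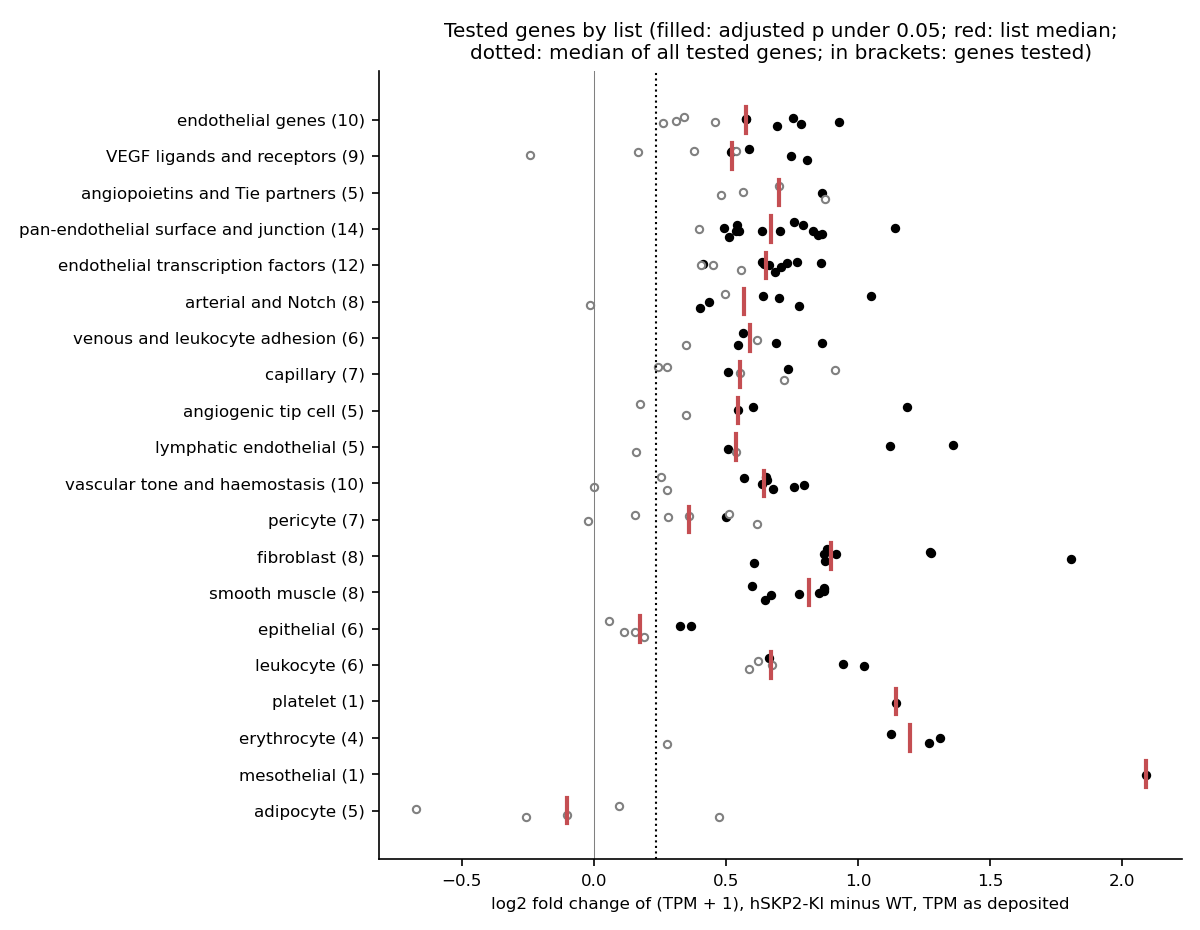
Log2 fold changes of hSKP2-KI over WT, as deposited, of the tested genes of each list (number of tested genes in brackets), with 1 point per gene, filled where called, and the list median as a bar. The medians of the 10 vessel lists lie between 0.52 and 0.70, above the median of all genes (0.23). The mesothelial, erythrocyte, platelet, fibroblast and smooth muscle medians lie higher (2.09, 1.20, 1.15, 0.90 and 0.81). The mesothelial and platelet lists have 1 tested gene each, and that of the mesothelial list passed the filter only through the hSKP2-KI mice.

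Markers of the other cell types of the lobe were counted in the same way, and they did not all move alike. Smooth muscle markers rose in 8 of 8 genes as deposited and 5 of 8 after scaling, with summed levels of 3094 to 4729 TPM in hSKP2-KI and 2076 to 2619 TPM in WT mice. Des, Cnn1 and Synm changed by 0.87 each as deposited (adjusted p = 0.00542, 0.00347 and 0.00187), and after scaling they were at 0.60, 0.60 and 0.61 (adjusted p = 0.0716, 0.0456 and 0.0132), where Des was not called. Fibroblast markers rose in 8 of 8 as deposited and 4 of 8 after scaling, with sums of 853 to 1503 TPM against 462 to 654 TPM, and in 4 as deposited without the 1st WT mouse. Lum, Pi16 and Dpt changed by 1.81, 1.27 and 1.27 (adjusted p = 0.000844, 0.00417 and 0.00355), and by 1.56, 1.02 and 1.01 after scaling (adjusted p = 0.00331, 0.0204 and 0.0214). Pericyte markers, of cells that wrap capillaries, rose in 1 of 7 tested (Abcc9, 0.50, adjusted p = 0.0442, and 0.29 after scaling, adjusted p = 0.257) and in 0 after scaling. These shares were below the 32.7% and 6.92% of all tested genes called higher. Their sums were 29.8 to 48.8 TPM against 26.2 to 34.8 TPM. As deposited, 3 were called without the 1st hSKP2-KI mouse and 2 without the 2nd WT mouse. Without the 2nd or 4th hSKP2-KI or the 1st, 3rd or 4th WT mouse 0 were called. Rgs5 and Pdgfrb were at 0.62 and 0.51 (adjusted p = 0.0915 and 0.0552), and at 0.38 and 0.30 after scaling (adjusted p = 0.362 and 0.282). Notch3 was at −0.02 as deposited (adjusted p = 0.887) and −0.27 after scaling (adjusted p = 0.0794), there without overlap. Higd1b and Cox4i2 were below the filter. The median log2 fold change of the pericyte genes was 0.36 as deposited, beside 0.58 for the 10 endothelial genes and 0.23 for all genes. Epithelial markers were called higher in 2 of 6 as deposited, Epcam (0.37, adjusted p = 0.0381) and Cdh1 (0.33, adjusted p = 0.0238), and in 0 after scaling, with sums of 1987 to 2275 TPM against 1721 to 1941 TPM, and leaving out any 1 mouse but the 4th WT mouse left 0 or 1 called. That count of 2 of 6 stands beside the 32.7% of all genes called higher, and the epithelial median of 0.17 was below the 0.23 of all genes. After scaling Epcam and Cdh1 were at 0.10 and 0.06 (adjusted p = 0.638 and 0.668), and Krt18 was at 0.19 as deposited and −0.08 after scaling (adjusted p = 0.0729 and 0.600). Over the 8 mice, after scaling, the mean of the 10 endothelial genes had a Pearson r of 0.763 with that of the pericyte list, 0.686 with fibroblast, 0.573 with smooth muscle and −0.649 with epithelial genes. With the genotype means subtracted these were 0.796, 0.188, −0.109 and −0.592, again as a description.

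Blood cells can bring Pecam1 and Vwf transcripts of their own. Leukocyte markers were called higher in 3 of 6 as deposited and 0 of 6 after scaling, beside 32.7% and 6.92% of all tested genes. Their sums were 54.9 to 118 TPM in hSKP2-KI and 29.8 to 67.4 TPM in WT mice. Without the 1st WT mouse 1 was called and without the 3rd WT mouse 6. Cd53, Laptm5 and Ptprc were at 1.02, 0.94 and 0.68 as deposited (adjusted p = 0.0137, 0.0203 and 0.0744) and at 0.82, 0.69 and 0.47 after scaling (adjusted p = 0.0698, 0.116 and 0.314). In the hSKP2-KI mice 1 to 4 the leukocyte sums were 67.6, 118, 68.2 and 54.9 TPM, and in the WT mice 1 to 4 they were 29.8, 38.6, 67.4 and 36.1 TPM. The 1st WT mouse was lowest of the 8 both in this sum and in Pecam1, and had the smallest factor of median-ratio scaling (0.828). The highest sum was in the 2nd hSKP2-KI mouse and the highest Pecam1 in the 4th. Of 7 platelet markers Pf4, which some macrophages also express, alone passed the filter and was called higher (1.15, adjusted p = 0.00157, and 0.89 after scaling, adjusted p = 0.00886). It was at 23.5 to 33.6 TPM in hSKP2-KI and 9.79 to 16.7 TPM in WT mice. Pf4 thus made up most of the list sums of 26.4 to 38.0 TPM against 11.1 to 19.2 TPM. Itga2b, Gp9, Gp1bb, Gp6, Ppbp and Treml1 were below the filter. Mean Itga2b was lower in hSKP2-KI than in WT mice (0.871 against 1.09 TPM). Mean Gp1bb and Ppbp were higher (0.874 against 0.647 TPM and 0.817 against 0.406 TPM), and all of these overlapped. Gp6 was listed at 0 in 7 of 8 mice, and Gp9 was at most 0.631 TPM. Of 4 tested erythrocyte markers 3 rose as deposited, all of them haemoglobin genes, and 0 after scaling. Alas2, the other tested marker, was not called (0.28, adjusted p = 0.194, and 0.03 after scaling, adjusted p = 0.917). The list sums were 1916 to 2964 TPM against 663 to 2373 TPM, the high WT value being the 2nd mouse. Hba-a1, Hbb-bs and Hbb-bt changed by 1.31, 1.27 and 1.12 as deposited (adjusted p = 0.0152, 0.0152 and 0.0370), and were at 1.04, 1.00 and 0.86 after scaling (adjusted p = 0.0675, 0.0697 and 0.155), of which Hba-a1 has a near-identical copy in Hba-a2, which was below the filter. Over the 8 mice, after scaling, the endothelial mean had a Pearson r of 0.327 with the leukocyte, 0.607 with the platelet and 0.524 with the erythrocyte mean. With the genotype means subtracted these were −0.143, 0.32 and −0.042, again as a description. The part of blood cells in the endothelial differences was not tested.

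Markers of tissue that lies against the lobe were counted as well. Msln, a mesothelial marker, was between 2.08 and 7.77 TPM in hSKP2-KI and between 0.0387 and 0.652 TPM in WT mice. Its log2 fold change was 2.09 as deposited and 1.97 after scaling. Msln reached 1 TPM in the hSKP2-KI mice alone. It passed the filter only through the group where it was high, so its call is not counted as a result. Upk3b and Lrrn4 were below the filter. Upk3b was at 0, 2.58, 0 and 1.86 TPM in the hSKP2-KI mice 1 to 4 and at most 0.254 TPM in WT mice. The mesothelial sums were 2.11 to 10.6 TPM against 0.132 to 0.742 TPM. Adipocyte markers were called in 0 of 5 on either scale (1 as deposited without the 4th hSKP2-KI mouse), with sums of 44.6 to 210.3 TPM in hSKP2-KI and 27.4 to 169 TPM in WT mice. Adipoq, Lep and Retn were at −0.26, 0.47 and −0.67 (adjusted p = 0.711, 0.495 and 0.324), and at −0.52, 0.24 and −0.90 after scaling (adjusted p = 0.603, 0.834 and 0.334). The adipocyte sums were 44.6, 113, 78.5 and 210.3 TPM in the hSKP2-KI mice 1 to 4 and 155, 129, 27.4 and 169 TPM in the WT mice 1 to 4. The 4th hSKP2-KI mouse, highest for 9 endothelial genes, was thus highest in this sum, and the 1st WT mouse, lowest for 6 of them, was the third highest. Over the 8 mice, after scaling, the endothelial mean had a Pearson r of 0.186 with the adipocyte mean and 0.876 with the mesothelial mean, a list of 3 genes of which 2 were below the filter. With the genotype means subtracted these were 0.51 and 0.7, again as a description. Without the 4th hSKP2-KI mouse, 4 of the 10 endothelial genes were called as deposited (Pecam1, Cdh5, Tie1 and Egfl7) and 2 after scaling (Pecam1 and Tie1). Without the 1st WT mouse, which was lowest for 6 of them, the counts were 4 as deposited and 1 after scaling (Tie1). The part of other tissue in the endothelial differences was not tested.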

How the data were processed

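One library was sequenced from the ventral prostate of each of 8 mice, 4 hSKP2-KI and 4 WT, from mRNA selected on poly-T beads. Paired-end reads were trimmed and mapped in CLC software. The build named in the submitters' processing notes is GRCm38 (mm10), and the version and counting options are not given in the sources used here. The authors deposited 1 table of TPM for the 8 samples, normalized to the same total in each, with 0 columns of other samples. TPM does not carry the reads of each sample, so the depth behind each value was not known here and no count model or counting interval was used. Mitochondrial genes such as CYTB and COX1 had a TPM of 0 throughout, so a 0 need not mean absence.

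log2(TPM + 1) of the 13080 genes that reached a TPM of 1 in 4 or more samples was modelled by genotype with limma 3.58.1 (R 4.3.3), using its intensity trend for the variance and Benjamini-Hochberg adjustment at 0.05. Ratios to Cdh5 were compared by exact permutation with scipy 1.17.1. The alternatives were median-ratio scaling, quantile normalization, rescaling that left out the 20 top genes, a pseudocount of 0.1, no filter, a filter at a mean TPM of 5, leaving out each mouse and a replicate block. Median-ratio scaling with a mouse left out or with the block was added after seeing the data.

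The 10 genes, the lists and the tests were chosen with earlier results of these data known. Named were all 10 genes, the 3 tested genes of each list with the largest absolute log2 fold change, listed genes below the filter, the 5 genes most alike in pattern, and Skp2 and Pbsn. A few of the genes that this selects are not reported here. Vegfa, Gata2, Ecscr, Thbd, Dll4, Notch1, Notch3, Nr2f2, S1pr1, Elk3, Aplnr and Alas2 are outside this rule and were chosen after their values were seen. Sequence windows were cut where an annotated gene began.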

Additional observations from a re-analysis of the deposited data

Results flagged for a closer look

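Among 142 groups of 4 mice (71 named genes in each genotype), 9 had 1 mouse far from the other 3 by Dixon's ratio at the 95% level. Chance gives about 1 in 20 such groups. Of the 10 endothelial genes Sox17 was the only one, where the 3rd hSKP2-KI mouse was low at 1.06 TPM. Among the wider vessel genes, Nrp2 and Nid2 were low in the 1st WT mouse, at 4.66 and 1.23 TPM, and Angpt4 was low in the 1st hSKP2-KI mouse at 1.17 TPM. The other values were Pbsn at 173.8 TPM in the 4th hSKP2-KI mouse (high), Epcam at 438.7 TPM in the 1st hSKP2-KI mouse (high), Krt18 at 507.0 TPM in the 3rd WT mouse (low), Msln at 0.652 TPM in the 2nd WT mouse (high) and Adipoq at 11.2 TPM in the 3rd WT mouse (low).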

How the results depend on the processing

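With another pseudocount (0.1) 6 of the 10 endothelial genes were again called. Without a filter 4 were called, with Kdr and Tek lost. A mean TPM of at least 5 left 5 of the 10 to test, of which 3 were called, and 32 vessel list genes. Scaling had the widest effect: 1461 genes were called after median-ratio scaling, 1316 after quantile normalization and 1330 on rescaling without the 20 most abundant genes, against 4433 as deposited, and 61.9%, 53.8% and 67.1% of the calls were higher in hSKP2-KI mice against 96.4%. Under each of these 3 scalings the same 3 endothelial genes were called (Pecam1, Tie1 and Egfl7), and 20, 12 and 13 vessel list genes against 53. Emcn changed sign under quantile normalization (−0.0492) and, after median-ratio scaling, without the 4th hSKP2-KI mouse (−0.12), the 3rd WT mouse (−0.0681) or the 4th WT mouse (−0.0035), and Esam without the 4th hSKP2-KI mouse (−0.0585). Leaving out 1 mouse gave 4 to 7 called endothelial genes as deposited, 2993 to 4677 called genes and log2 ratio differences to Cdh5 of −0.75 to −0.50 for Emcn and −0.64 to −0.51 for Esam. Of scaled values, 2 endothelial genes were called without the 1st, 2nd or 4th hSKP2-KI or the 2nd or 4th WT mouse, 4 without the 3rd hSKP2-KI, 1 without the 1st WT and 3 without the 3rd WT mouse. Those scaled fits called 789 to 1291 of all tested genes.

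Over all tested genes, same-numbered mice showed little joint deviation (correlations of 0.221, −0.109, 0.167 and −0.0142). The labels give no pairing, and these correlations cannot exclude one. As deposited, the replicate block lowered the SE of Cdh5 from 0.19 to 0.10 and that of Esam from 0.19 to 0.11. With the replicate block 5128 genes and 7 endothelial genes were called, the added one being Vwf (adjusted p = 0.0491), and 3 after median-ratio scaling (Pecam1, Cdh5 and Tie1). The cause of these shifts was not tested. TPM gives no depth, and genes near 1 TPM such as Sox17 rest on an unknown number of reads.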
